A study of Mus musculus with 3 samples.

Results

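The genes described here are the solute carriers (SLC) of mouse granulosa cells, the membrane proteins that move amino acids, ions, metals, vitamins, lipids and metabolites across the plasma membrane and the membranes of organelles. Members were chosen by symbol and level: every gene named in the Slc-number-a series, without the glucose carriers Slc2a and the monocarboxylate carriers Slc16a, that reached a summed level of 5 FPKM or more (sequenced fragments divided by transcript length in kilobases and by library size) in at least 1 of the 3 libraries. Of 323 genes with such a name in the table of 24225 genes, 149 reached that level and 174 did not. The 3 libraries are granulosa cells of wild-type C57BL/6 females of postnatal day 21 to 28, all given 4 IU of equine chorionic gonadotropin (eCG) to grow follicles. Cells were taken before human chorionic gonadotropin (hCG; 0 h), or 4 h or 12 h following a dose of 5 IU, where hCG stands in for the ovulatory surge of luteinizing hormone. RNA came from 3 mice per time, isolated by puncturing follicles, and each time has 1 library. No replicate spread can be measured, no test was run, and every difference is between 2 libraries.

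SLC proteins are secondary active transporters, exchangers and facilitators: many draw on the sodium gradient or on a counter-ion, and they have no ATPase of their own. Some work as pairs, such as the SLC7 light chains that reach the cell surface only with the heavy chain 4F2hc (Slc3a2). Most of the SLC25 family sits in the inner mitochondrial membrane, where steroid synthesis begins in the luteinizing follicle. The granulosa cell has no direct blood supply before ovulation, so its nutrients arrive by diffusion and through its own carriers.

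Promoter sequences are shown for the members that stood furthest apart between 4 h and 0 h, to show the DNA around an annotated start of these genes; no value here measures transcription from them. Each is the RefSeq window of 250 bases before to 50 bases after an annotated start in GRCm38.p6, the assembly that mm10 names, printed on the strand of the gene. Slc5a7 (chr17:54298985-54299284, minus strand), Slc7a8 (chr14:54781837-54782136, minus strand) and Slc7a11 (chr3:50443564-50443863, minus strand) were the 3 genes with the largest positive log2 folds. Slc25a18 (chr6:120773518-120773817, plus strand) had the lowest log2 fold among members with an entry. Slc38a6 (chr12:73286598-73286897, plus strand) was added after the search because it held a full cAMP response element. No other member past 2-fold at 4 h with an entry held this element. Entries existed for 16 of the 21 higher and 7 of the 8 lower members. Capitals mark matches to the cAMP response element TGACGTCA, its variant TGACGCAA, the SF-1 and LRH-1 site CAAGGTCA, the CCAAT box and the ATF4 response element, searched on both strands as TGATGNAAT and as its shorter form TGATGNAA, which overlaps the longer form wherever that occurs.
Slc5a7: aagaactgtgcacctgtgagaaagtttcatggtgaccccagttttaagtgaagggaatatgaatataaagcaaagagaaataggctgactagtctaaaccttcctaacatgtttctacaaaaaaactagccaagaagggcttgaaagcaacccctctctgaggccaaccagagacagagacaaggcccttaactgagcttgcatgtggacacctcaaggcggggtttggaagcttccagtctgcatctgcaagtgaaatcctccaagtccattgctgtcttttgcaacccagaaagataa
Slc7a8: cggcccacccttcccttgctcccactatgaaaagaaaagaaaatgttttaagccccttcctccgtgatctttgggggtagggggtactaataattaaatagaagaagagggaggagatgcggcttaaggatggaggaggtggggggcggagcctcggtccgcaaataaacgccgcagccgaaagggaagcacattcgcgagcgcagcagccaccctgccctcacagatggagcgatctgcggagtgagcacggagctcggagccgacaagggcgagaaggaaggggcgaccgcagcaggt
Slc7a11: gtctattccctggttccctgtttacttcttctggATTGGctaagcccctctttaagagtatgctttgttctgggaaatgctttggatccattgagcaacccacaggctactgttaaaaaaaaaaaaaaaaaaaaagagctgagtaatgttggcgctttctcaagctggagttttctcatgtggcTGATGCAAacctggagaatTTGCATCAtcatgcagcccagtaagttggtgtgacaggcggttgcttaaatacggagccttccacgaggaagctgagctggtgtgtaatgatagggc
Slc25a18: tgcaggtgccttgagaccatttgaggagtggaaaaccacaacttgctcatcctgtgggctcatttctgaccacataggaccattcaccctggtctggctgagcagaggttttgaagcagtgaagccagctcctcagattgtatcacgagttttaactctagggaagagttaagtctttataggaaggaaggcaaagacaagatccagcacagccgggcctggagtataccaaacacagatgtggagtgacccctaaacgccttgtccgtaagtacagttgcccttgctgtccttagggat
Slc38a6: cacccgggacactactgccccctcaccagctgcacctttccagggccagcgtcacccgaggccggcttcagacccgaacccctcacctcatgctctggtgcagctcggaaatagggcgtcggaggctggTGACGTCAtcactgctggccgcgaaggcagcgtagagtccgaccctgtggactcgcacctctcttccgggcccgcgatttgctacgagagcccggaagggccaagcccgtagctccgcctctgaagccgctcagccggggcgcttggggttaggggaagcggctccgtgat

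The Slc7a11 window held TGATGNAA on the plus strand at bases -66 to -59 and on the minus strand at -47 to -40, counted from the start that the window covers, and a CCAAT box on the minus strand at -216 to -212. The shorter ATF4 element was found in 3.97% of all 32851 promoter windows and in 3.80% of the 158 windows that belong to 113 members; the form TGATGNAAT was in 0.965% of all windows and in 0 of the members' windows. Slc38a6 carried TGACGTCA at -121 to -114, a site found in 1.79% of all windows and in 4 of the 158 windows of members. TGACGCAA was in 0.490% of all windows and in 3 members' windows, and CAAGGTCA in 1.56% and in 1. The CCAAT box was in 37.4% of all windows and 34.8% of the members' windows. The metal response core TGCNCNC, not capitalised, was in 51% of all windows and 59.5% of the members' windows. The windows of Slc5a7, Slc7a8 and Slc25a18 held none of the capitalised elements. A match is a description of the letters in the window and says nothing about binding.

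Facts of the libraries bear on all values. From the spacing of low FPKM values, the libraries held about 13400000, 11900000 and 11600000 fragments in time order, so that 1 fragment on a transcript of 2000 nt is worth 0.0419, 0.0467 and 0.0479 FPKM. Intervals in the text are the deposited bounds of the estimate within 1 library. The granulosa markers Fshr, Cyp19a1, Foxl2, Inha, Inhba, Amh, Hsd17b1 and Nr5a2 were all at 1 FPKM or more in each library, with sums of 9786, 8703 and 5236 FPKM at 0, 4 and 12 h; 4 of the 8 were lower at 4 h than at 0 h, among them Fshr (133, 15.5 and 32.1 FPKM). Markers of other cells were present as well, and their sums moved between libraries. Summed FPKM at 0, 4 and 12 h were 272, 213 and 375 for 11 oocyte markers, 363, 692 and 495 for 8 theca and stroma markers, 28.7, 48.1 and 23.4 for 7 endothelial markers, and 126, 191 and 187 for 6 smooth muscle markers. They were 69.2, 116 and 121 for 7 leukocyte markers, 1.78, 24.3 and 3.59 for 6 neutrophil markers (Ngp was listed at 0 in each library), 1739, 1092 and 1111 for 6 erythroid markers, and 60.4, 146 and 91.1 for 7 surface epithelium markers. Single genes weighed heavily in some sums. Mgp, a theca and stroma marker, was at 70.9, 371 and 191 FPKM. It alone of those 8 was higher by at least 2-fold (FPKM + 1) at 4 h than at 0 h, and none was lower. Tagln was likewise alone among the 6 smooth muscle markers, whereas 4 of the 7 surface epithelium markers were higher. Inha, at 6986, 7163 and 3742 FPKM, made up most of the granulosa sum. The part of other cells in the results below was not tested. In bulk RNA fewer cells of a type and less RNA per cell cannot be told apart.

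The 149 members together held 4539 FPKM at 0 h, 7109 at 4 h and 4535 at 12 h, or 0.905%, 1.14% and 0.959% of the summed FPKM of all genes. At 4 h the sum was 2571 FPKM above that at 0 h, and 3 genes supplied 1762 FPKM of that difference: the amino acid carrier Slc7a8 with 890, the mitochondrial phosphate carrier Slc25a3 with 530 and the heavy chain Slc3a2 with 343. The median member was at 15.2, 16.5 and 16.1 FPKM at 0, 4 and 12 h. The member floor was met in all 3 libraries by 121 genes. The other 28 met it in only 1 or 2 libraries and so had to differ between libraries to some degree. Among them Slc5a7, Slc7a11, Slc4a4, Slc37a2 and Slc15a2 met it only at 4 h, so that their calls involving 4 h are partly set by the floor. Just inside the floor lay Slc1a4, Slc4a11, Slc8a1, Slc5a4a and Slc15a2, with highest levels of 5.16, 5.17, 5.19, 5.2 and 5.28 FPKM. Just outside lay Slc41a2, Slc7a2, Slc38a9, Slc4a8 and Slc39a8, with 4.96, 4.31, 4.21, 4.04 and 4.02 FPKM.

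**Figure D1:**
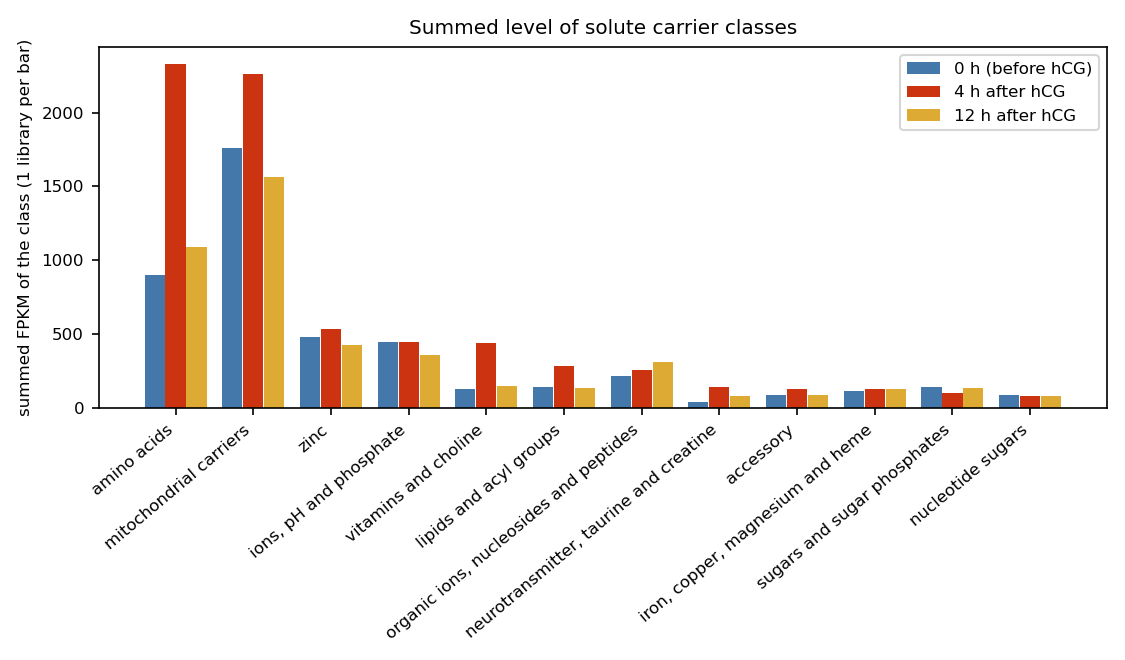
Summed FPKM of the members of each transport class at 0, 4 and 12 h after hCG, 1 library per bar. Amino acid carriers summed to 2328 FPKM at 4 h, above the 900 at 0 h and the 1092 at 12 h, and mitochondrial carriers to 2261 FPKM at 4 h.

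Setting 4 h against 0 h shows which carriers differed early after the ovulatory stimulus. At 4 h transcripts of a choline carrier (Slc5a7), a vitamin C carrier (Slc23a2), several amino acid carriers (Slc7a8, Slc7a11, Slc7a1, Slc3a2), a fatty acid transport protein (Slc27a3) and a phosphate carrier (Slc20a2) stood between 4.13 times (Slc3a2) and 45.8 times (Slc7a11) their 0 h level, and further for Slc5a7, which was close to 0 before hCG. A gene is called higher or lower here where the ratio of FPKM + 1 was at least 2-fold, a measure that makes folds of weakly expressed genes look smaller. By this rule 21 of the 149 members were higher at 4 h than at 0 h (14.1%), against 10.2% of 13240 genes tested and 10.1% of 10439 genes that reached the same 5 FPKM floor. Lower at 4 h were 8 members (5.37%), against 7.03% of the genes tested and 6.95% at the same floor. Since the floor that chose the members uses these levels, the shares describe the members and support nothing further. The members' median log2 fold was 0.08, and that of all genes tested was -0.01. Of the members' calls 72.4% were higher on the deposited scale. The share was 42.1% (16 higher, 22 lower) when all libraries were given equal FPKM totals (the equal-total scale). It was 53.3% (16 higher, 14 lower) when totals over protein-coding isoforms were made equal (the coding-total scale). Of the calls over all genes 59.3%, 36.7% and 42.5% were higher in the same order. The equal-total and coding-total scales moved the median log2 fold of all genes to -0.29 and -0.21. Both, and median-of-ratios scaling, lower 4 h against 0 h, so none of the 8 lower calls could be lost. Of the 21 higher calls 16 held under all 3 scalings. The 5 higher calls that did not were Slc1a5, Slc25a3, Slc38a4, Slc39a10 and Slc4a7.

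**Figure D2:**
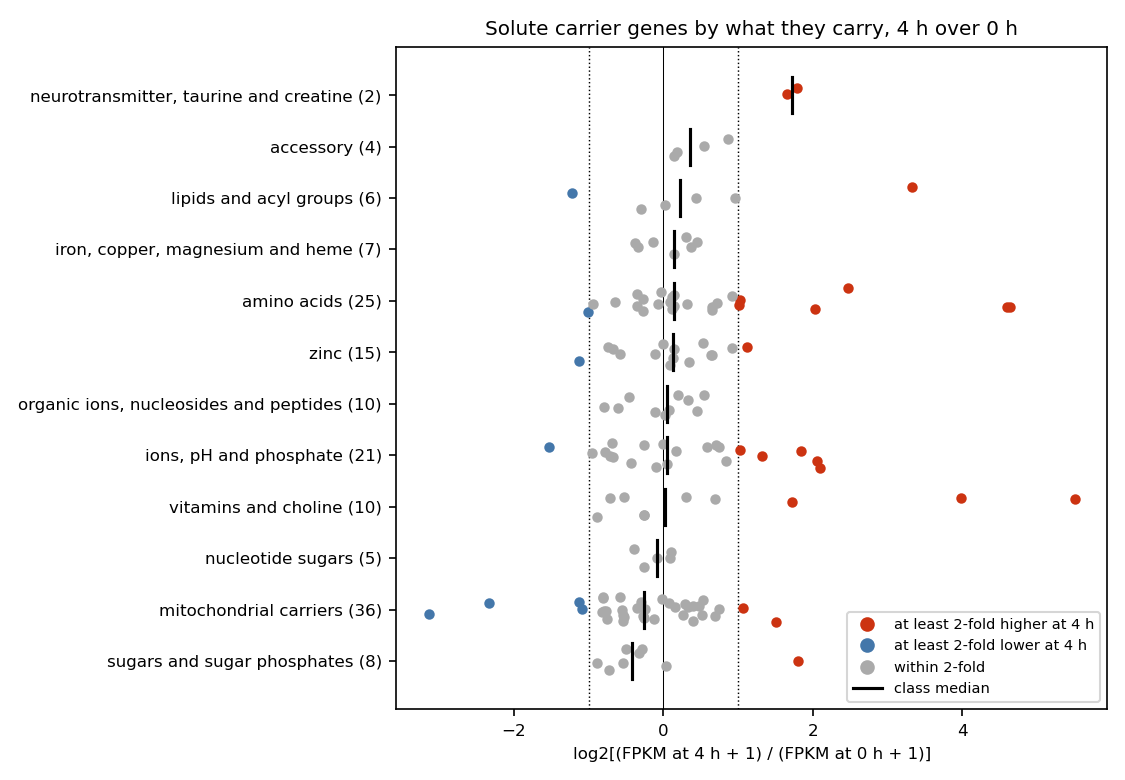
Log2 fold of each member at 4 h over 0 h, on the log2(FPKM + 1) scale, by transport class with the number of members in parentheses. Dots are genes, black bars are class medians and dotted lines mark 2-fold. The 4 members furthest to the right are Slc5a7 (5.50), Slc7a8 (4.63), Slc7a11 (4.60) and Slc23a2 (3.99).

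Amino acid carriers held the largest summed difference. At 4 h 6 of 25 members were higher and 1 lower, and 18 had no call. The class median log2 fold was 0.14, and it became -0.16 on the equal-total scale. Slc7a8, the light chain LAT2 for neutral amino acids, was at 36.3 FPKM (33.8 to 38.9) at 0 h, 926 (913 to 939) at 4 h and 50.4 (47.4 to 53.4) at 12 h. The 4 h library stood 25.5 times above the 0 h library, and the 12 h library stood slightly above it with intervals apart. Slc7a8 lies on chromosome 14 at 54722215 to 54781886. Slc7a11, the cystine and glutamate exchanger xCT that feeds glutathione synthesis, was at 1.09 (0.783 to 1.39), 49.8 (47.8 to 51.7) and 3.49 FPKM (2.76 to 4.21) at 0, 4 and 12 h (log2 fold 4.60 for 4 h over 0 h, and 1.10 for 12 h over 0 h). It lies on chromosome 3 at 50364936 to 50499087 on the minus strand in RefSeq, and the promoter window printed above lies inside that span, at a start downstream of the outermost one. Slc7a1, the cationic amino acid carrier CAT1, which needs no heavy chain, was at 5.79 (3.91 to 8.05), 36.7 (34.7 to 38.7) and 13.1 FPKM (10.9 to 15.9) in time order. Both Slc7a11 and Slc7a1 were thus highest at 4 h and still higher at 12 h than at 0 h by the 2-fold rule.

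The heavy chain Slc3a2, which escorts LAT1, LAT2, xCT and the y+LAT light chains to the membrane, was at 109 FPKM (99.6 to 119) at 0 h, 452 (437 to 467) at 4 h and 135 (128 to 142) at 12 h. The 6 light chains known to pair with it (Slc7a5, Slc7a6, Slc7a7, Slc7a8, Slc7a10 and Slc7a11) summed to 145, 1091 and 165 FPKM, so that the summed light chains lay above the heavy chain in every library. Slc7a8 made up 25.1%, 84.9% and 30.5% of that light chain sum at 0, 4 and 12 h. Slc7a11 was also highest at 4 h, as given above, whereas Slc7a5, Slc7a6 and Slc7a7 were within 2-fold at 4 h over 0 h. LAT1 (Slc7a5), which carries large neutral amino acids, was at 59.6, 64.5 and 58.9 FPKM, and the y+LAT2 chain Slc7a6 at 40.9, 45.2 and 40.1 FPKM. Slc7a7, the y+LAT1 chain, was at 6.74, 5.05 and 11.9 FPKM with intervals that overlapped between all libraries, and it shares exonic positions with the opposite-strand gene Oxa1l (38.9, 28.9 and 36.5 FPKM).

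Sodium-coupled carriers of neutral amino acids were closer to even. The glutamine carrier Slc1a5 (ASCT2) was at 10.1 (7.89 to 12.3), 21.4 (18.1 to 24.6) and 15.3 FPKM (12.3 to 18.3), just past 2-fold at 4 h, and Slc38a4 (SNAT4) was at 3.76, 8.68 and 5.21 FPKM. Slc38a2 (SNAT2), a carrier of small neutral amino acids, was at 104 (99.8 to 108), 172 (167 to 177) and 108 FPKM (104 to 112), highest at 4 h but within 2-fold. Slc38a1 (SNAT1) followed the same order at 29.9, 47.4 and 31.9 FPKM. Slc38a5 (SNAT5), among the most abundant members, was at 210, 224 and 236 FPKM, and Slc38a3 (SNAT3) was at 90.4, 98.2 and 171 FPKM, highest at 12 h and within 2-fold. Slc38a6 was lower at 4 h, at 9.24 (7.22 to 11.3), 4.10 (3.01 to 5.19) and 9.14 FPKM (7.13 to 11.2), with the 0 h and 12 h intervals overlapping. The glycine carrier Slc6a9 was just under the threshold, at 20.8, 10.4 and 17.7 FPKM.

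Both carriers of taurine and creatine were higher at 4 h. The taurine carrier Slc6a6 was at 33 FPKM (31.1 to 35), 117 (113 to 120) and 68.4 (65.6 to 71.3) at 0, 4 and 12 h, and its 12 h level was still past 2-fold over 0 h (log2 fold 1.03). The creatine carrier Slc6a8 was at 6.91 (2.02 to 16.8), 23.9 (21.8 to 26) and 9.75 FPKM (7.80 to 11.7). The wide interval of Slc6a8 at 0 h overlapped that at 12 h and lay below that at 4 h.

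Carriers of vitamins and choline had 10 members, of which 3 were higher at 4 h and none was lower on the deposited scale; on the equal-total scale 3 were higher and 1 lower. All 3 were again lower at 12 h than at 4 h. Slc5a7, the high-affinity choline carrier best known from cholinergic neurons, was at 0.151 FPKM (0 to 0.317) at 0 h, 51.2 (48.6 to 53.9) at 4 h and 0.571 (0.285 to 0.857) at 12 h. Its log2 fold at 4 h over 0 h was 5.50, the largest of the 149 members, though Slc5a7 is a member only through its 4 h level. The gene lies on chromosome 17 at 54273590 to 54299038. Slc23a2 (SVCT2), which takes up ascorbate with sodium, was at 15.2 (13.9 to 16.5), 256 (251 to 262) and 27.4 FPKM (25.7 to 29.1). The 4 h level was 16.9 times the 0 h level, and the 12 h level lay between them with intervals apart from both. Slc44a1, a choline carrier of lower affinity, was at 8.84 (6.91 to 10.8), 31.4 (27.7 to 35.1) and 9.37 FPKM (6.84 to 11.9), with overlapping intervals at 0 and 12 h. Carriers of folate (Slc19a1: 13.7, 11.3 and 15.8 FPKM), thiamine (Slc19a2: 15.5, 25.7 and 16.7 FPKM) and riboflavin (Slc52a2: 13.3, 16.6 and 13.2 FPKM) were within 2-fold.

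Among 6 lipid and acyl carriers, members of the fatty acid transport protein family differed in direction. Slc27a3, an acyl-CoA synthetase of that family, was at 16.9 FPKM (13.5 to 20.4) at 0 h, 180 (172 to 188) at 4 h and 19.3 (15.5 to 23.1) at 12 h. The fatty acid uptake protein Slc27a1 was lower at 4 h, at 68.4 (64.1 to 72.6), 28.7 (26 to 31.5) and 61.0 FPKM (57.0 to 65.0). Slc27a4 was at 16.4, 32.9 and 16.3 FPKM, just under the threshold (log2 fold 0.96). In each of the 3 genes the 12 h interval overlapped that at 0 h.

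Mitochondrial carriers, here all members named Slc25a and the largest class with 36, had 2 higher and 4 lower at 4 h and 30 without a call. The class median log2 fold was -0.26 on the deposited scale. Each scaling tried lowers 4 h against 0 h, so this median could only fall further. On the equal-total scale it was -0.55, beside -0.29 for all genes, and 1 member was higher and 10 were lower. Slc25a3, which imports phosphate for ATP synthesis, was the most abundant member at 483 FPKM (467 to 499), 1013 (989 to 1036) and 431 (416 to 446). It was past 2-fold at 4 h on the deposited scale and on neither the equal-total nor the coding-total scale. The adenine nucleotide carriers Slc25a4 (306, 257 and 255 FPKM) and Slc25a5 (166, 210 and 129 FPKM), which exchange ADP for ATP, were within 2-fold. Slc25a30 was higher at 4 h and remained past 2-fold at 12 h, at 23.4 (18.7 to 28.2), 68.4 (62.9 to 74.0) and 53.0 FPKM (48.1 to 57.9).

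In the other direction stood Slc25a35, at 61.4 FPKM (56.2 to 66.5) at 0 h, 6.08 (4.36 to 7.80) at 4 h and 18.1 (14.2 to 22.1) at 12 h, the lowest log2 fold of all members at 4 h (-3.14). Its exons overlap those of Rangrf on the opposite strand, at 6.99, 2.2 and 2.67 FPKM, and without strand information in the sources used here the reads of such pairs cannot be told apart. The glutamate carrier Slc25a18 was at 9.06 (6.58 to 11.5), 1.0 (0.206 to 1.79) and 5.90 FPKM (3.94 to 7.86); its opposite-strand neighbour Atp6v1e1 was at 125, 139 and 120 FPKM. Slc25a23, which exchanges ATP-magnesium for phosphate, was at 21.5, 9.63 and 19.1 FPKM, and Slc25a40 at 8.19, 3.20 and 6.20. Several carriers of intermediary metabolism did not reach 2-fold on the deposited scale: the aspartate and glutamate carrier Slc25a12 was at 23.2, 12.8 and 23.3 FPKM, the carnitine and acylcarnitine carrier Slc25a20 at 25.2, 14 and 20.2, and the oxoglutarate carrier Slc25a11 at 57.3, 33.7 and 44.8. The citrate carrier Slc25a1, which supplies carbon for sterol and fatty acid synthesis, was at 51.6, 62.0 and 56.0 FPKM. The mitochondrial iron importer Slc25a28 was at 76.4, 129 and 73.0, and the NAD carrier Slc25a51 at 23.3, 38.3 and 27.1.

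Carriers of ions, bicarbonate and phosphate had 21 members, of which 5 were higher at 4 h and 1 lower (median log2 fold 0.05; 4 higher, 4 lower and a median of -0.23 on the equal-total scale). The sodium-phosphate carrier Slc20a2 (PiT-2) was at 14.5 FPKM (12.7 to 16.3), 65.1 (61.3 to 69.0) and 15.5 (13.8 to 17.3), and its opposite-strand neighbour Smim19 was at 15.5, 9.07 and 16.8. Slc20a1 (PiT-1), which carries the same ion, was at 32.2, 48.8 and 36.7 FPKM and within 2-fold. The sodium-bicarbonate carriers Slc4a4 (1.0, 6.18 and 1.82 FPKM) and Slc4a7 (11, 23.4 and 10.9 FPKM) were both higher at 4 h and lower again at 12 h. Cation-chloride carriers differed in direction: Slc12a2 (NKCC1), which brings chloride into the cell, was at 8.68 (7.36 to 10), 23.2 (21.7 to 24.8) and 11.7 FPKM (10.6 to 12.9), while Slc12a7 (KCC4), which lets it out, was at 50.3 (47.6 to 52.9), 16.8 (15.2 to 18.3) and 28.6 (26.6 to 30.6). Slc12a8 was at 0.681 (0.283 to 1.09), 5.97 (1.78 to 10.2) and 6.71 FPKM (2.53 to 12.0), past 2-fold at both times after hCG. The anion exchanger Slc26a7 was at 105 (98.8 to 110), 63.2 (58.8 to 67.7) and 27.9 FPKM (23.8 to 32), with all intervals apart; it was within 2-fold at 4 h over 0 h and lower at 12 h than at 0 h.

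Zinc carriers had 15 members, with 1 higher and 1 lower at 4 h. SLC39 proteins bring zinc into the cytosol and SLC30 proteins take it out. The importer Slc39a10 was at 16.3 FPKM (14.7 to 17.8), 36.6 (34.3 to 38.9) and 21.2 (19.4 to 22.9), and Slc39a11 at 9.46 (2.74 to 23), 3.80 (1.11 to 9.30) and 5.83 (4.45 to 7.22), with overlapping intervals throughout. The exporter of the plasma membrane, Slc30a1, was at 7.89 (6.34 to 9.45), 12.8 (10.9 to 14.6) and 4.99 FPKM (3.88 to 6.10), and was lower at 12 h than at 4 h by the rule (log2 fold -1.20), a call that did not hold under every other scaling. Slc39a7, which releases zinc from the secretory pathway and was the most abundant of the class, was at 171, 189 and 148 FPKM. Carriers of iron, copper, magnesium and heme had 7 members, none past 2-fold in any comparison. The iron exporter Slc40a1 (ferroportin) was at 18, 24.9 and 32.4 FPKM, the iron importer Slc11a2 at 13.3, 14.9 and 15.6, and the copper importer Slc31a1 at 26.4, 34.6 and 22.1.

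Sugar and sugar phosphate carriers had 8 members, of which Slc37a2, an exchanger of glucose phosphate, was higher at 4 h (0.860, 5.47 and 2.38 FPKM) and none was lower. The class median log2 fold was nevertheless -0.42, with 6 of the 8 members below 0, and the class sum was 140 FPKM at 0 h and 96.7 at 4 h. On the equal-total scale the median was -0.66, with 1 member higher and 1 lower. The Golgi and plasma membrane sugar carrier Slc50a1 was at 71.5, 38.3 and 52 FPKM, and the inositol carrier Slc5a3 at 9.82, 7.61 and 9.50. Slc5a4a (2.43, 1.35 and 5.2 FPKM) and its close copy Slc5a4b, which stayed below 5 FPKM, are uncertain because reads could be split between them. None of the 5 nucleotide sugar carriers of the Slc35a series and none of the 10 carriers of organic ions, nucleosides and peptides was past 2-fold at 4 h. The vesicular monoamine carrier Slc18a2 (VMAT2) was the most abundant of the last class, at 107 FPKM (103 to 112), 147 (142 to 152) and 195 (189 to 201), with intervals apart and every fold under 2. The 4 symbols that the name pattern takes in although they are no carriers were also within 2-fold: Slc9a3r1, a scaffold, was at 13.3, 25 and 13.8 FPKM, Slc9a3r2 at 8.15, 9.36 and 7.23, Slc7a6os at 54.2, 79.2 and 48.5 and Slc4a1ap at 12.3, 13.8 and 14.1.

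**Figure D3:**
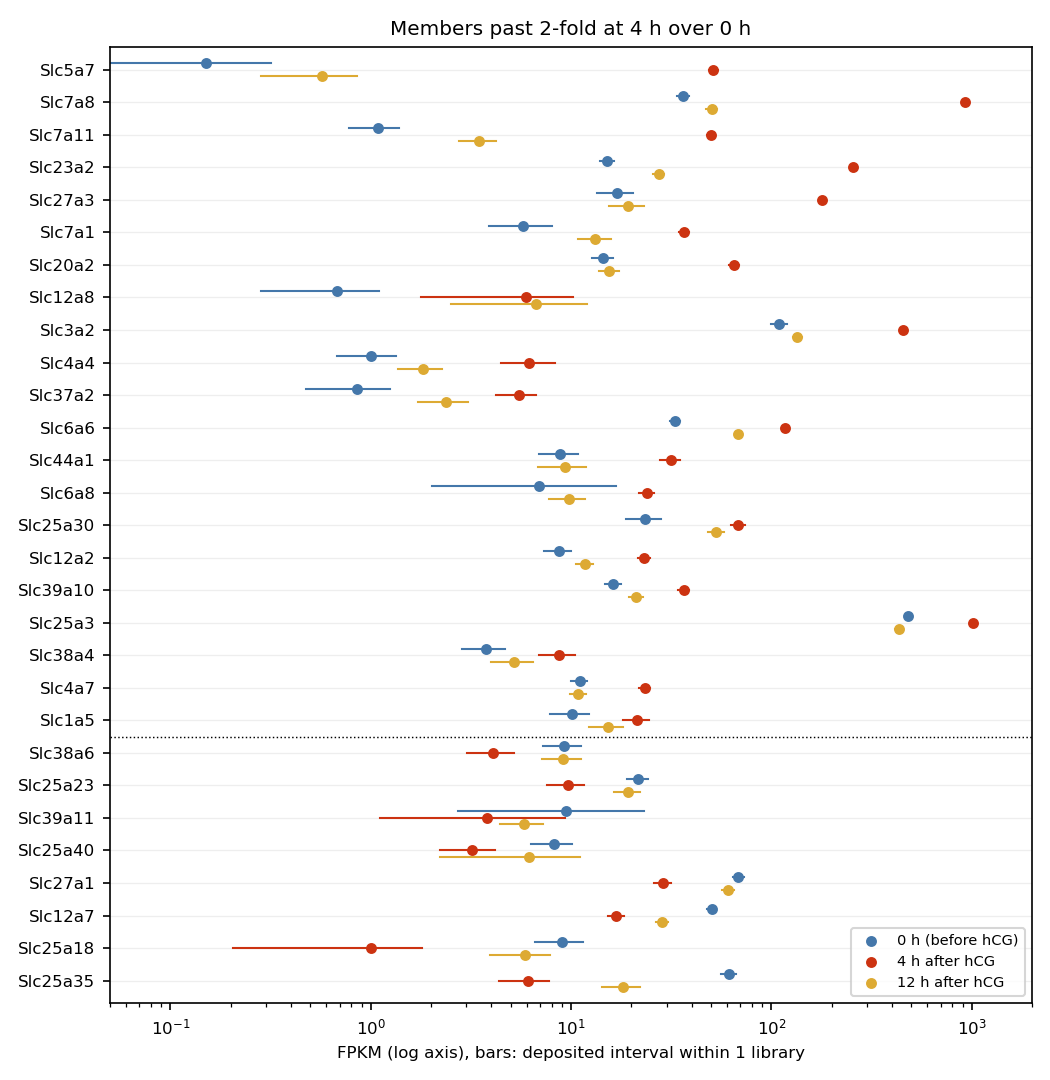
Level of the 29 members past 2-fold at 4 h over 0 h, in FPKM on a log axis, at each time, with the deposited interval within 1 library as a bar (bounds below 0.05 are drawn at 0.05). The 21 genes above the dotted line were higher at 4 h and the 8 below it lower; Slc7a8 was at 926 FPKM and Slc5a7 at 51.2 FPKM at 4 h.

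Setting 12 h against 4 h covers the interval from the early time toward ovulation. By the rule 7 members were higher at 12 h (4.70%), against 4.83% of 13242 genes tested and 4.63% at the same floor. Lower at 12 h were 17 members (11.4%), against 7.88% of the genes tested and 8.04% at the same floor. Of the members' calls 29.2% were higher on the deposited scale, 70.6% (24 higher, 10 lower) on the equal-total scale and 65.5% (19 higher, 10 lower) on the coding-total scale. Over all genes 37.99%, 70.65% and 61.97% of the calls were higher in the same order. The shift with the scale was thus shared by all genes and was not particular to the members. The largest log2 folds down were those of Slc5a7 (-5.06), Slc7a8 (-4.17), Slc7a11 (-3.50), Slc23a2 (-3.18) and Slc27a3 (-3.16). The largest up were those of Slc25a18 (1.79), Slc25a35 (1.43), Slc5a4a (1.40), Slc7a7 (1.09) and the brain-type uncoupling protein Slc25a27 (1.07; 9.81, 5.17 and 11.9 FPKM). Slc24a5, a cation exchanger known from pigment cells, was higher at 12 h than at 4 h at 22.4, 13.5 and 29.1 FPKM, and its opposite-strand neighbour Myef2 was at 58.0, 39.1 and 48.1 FPKM. The pyrimidine nucleotide carrier Slc25a33 was at 24.9, 35.1 and 16.4 FPKM and lower at 12 h than at 4 h, as was the peptide carrier Slc15a2 (3.98, 5.28 and 2.12 FPKM). Of the 17 lower calls 10 held under each of the 3 other scalings, and those of Slc15a2, Slc25a3, Slc25a33, Slc26a7, Slc30a1, Slc4a7 and Slc6a8 did not. Since this comparison and the first share the 4 h library, a member high at 4 h can be called in both.

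Setting 12 h against 0 h shows which members still differed near ovulation. By the rule 5 members were higher at 12 h (3.36%), against 3.16% of 13026 genes tested and 2.98% at the same floor. Lower at 12 h were 2 members (1.34%), against 2.55% and 2.26%. The 5 were Slc12a8 (log2 fold 2.2), Slc25a30 (1.14), Slc7a11 (1.10), Slc7a1 (1.06) and Slc6a6 (1.03), and the 2 were Slc26a7 (-1.87) and Slc25a35 (-1.70). These 7 calls held under each of the 3 other scalings. All 3 raise 12 h against 0 h, so only the 2 lower calls could have been lost. Over the 3 comparisons 11 of the 21 members higher at 4 h were lower again at 12 h and within 2-fold of 0 h (for Slc25a3, Slc4a7 and Slc6a8 the lower call did not hold under every scaling), 2 (Slc7a1 and Slc7a11) were lower again but still above 0 h, 3 (Slc12a8, Slc25a30 and Slc6a6) stayed above 0 h without a call between 4 and 12 h, and 5 were past 2-fold only at 4 h over 0 h. No call was made in any comparison for 112 of the 149 members. The share of all genes with each of these patterns is not given here. The patterns thus describe the members and mark no trait particular to carriers.

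The share of each RefSeq isoform within its gene was not used to choose the members. A share change is a move of at least 50 percentage points in a gene at 10 FPKM or more in both libraries. Among 30 members with several isoforms and this level, 1 passed at 4 h over 0 h, against 7.02% of 2008 genes tested. None of 31 members passed at 12 h over 4 h or at 12 h over 0 h, against 6.40% of 2048 and 5.14% of 2161 genes. The member was Slc39a14 (ZIP14), an importer of zinc, iron and manganese. Its isoform NM_144808 was at 11.8 FPKM (9.99 to 13.6), 9.91 (8.16 to 11.7) and 12.5 (8.97 to 16.1), while NM_001135152 was at or near 0 before hCG (upper bound 0.0702), at 13.3 FPKM (11.3 to 15.2) at 4 h and 3.56 (0.164 to 6.96) at 12 h. NM_001135152 thus held 57.2% of the gene at 4 h and 22.1% at 12 h, and the larger gene sum at 4 h (23.2 FPKM, against 11.8 at 0 h) lay in that isoform. Slc44a1 and Slc6a8 fall outside this rule, because both were under 10 FPKM at 0 h (8.84 and 6.91 FPKM) and Slc44a1 moved by 41.4 points; they were chosen after their values were seen. Other members under that level had larger share moves at 4 h against 0 h, among them Slc4a4 (NM_001197147, 89.4 points), Slc43a2 (NM_173388, 74.9), Slc10a7 (NM_001009981, 66) and Slc41a3 (NM_001037493, 57.6). The Slc44a1 isoform NM_001159633 had a listed value of 0 in the 0 h library, and it was at 13 (10.1 to 15.9) and 1.98 FPKM (0.303 to 3.65) at 4 and 12 h, beside NM_133891 at 8.84, 18.4 and 7.39. In Slc6a8 the isoforms NM_001142809 (3.32, 23.9 and 9.74 FPKM) and NM_001142810 (3.59 FPKM at 0 h and near 0 later) had 0 h intervals that both reached 0.

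**Figure D4:**
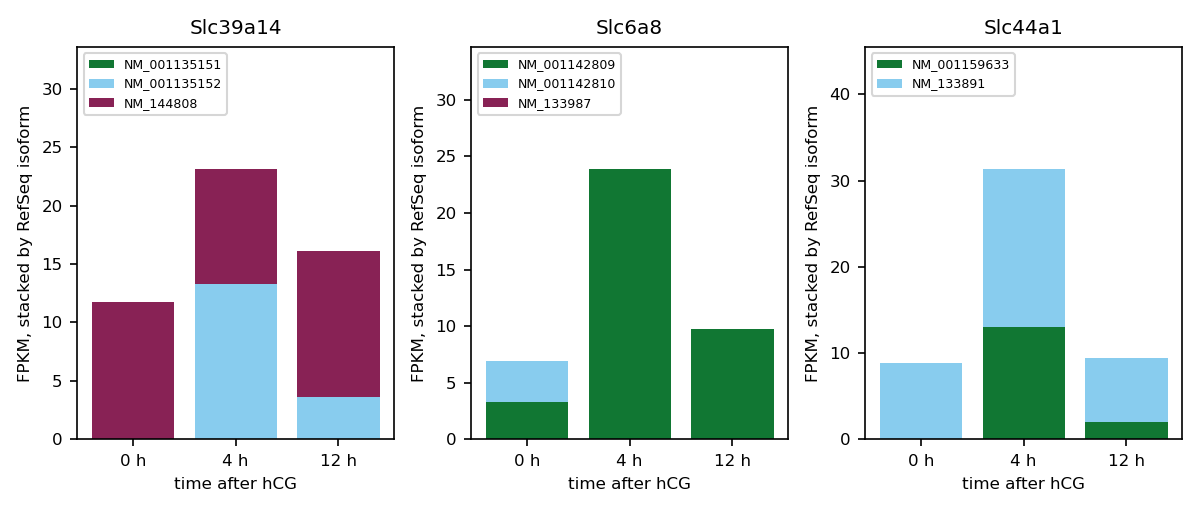
FPKM of the RefSeq isoforms of Slc39a14, Slc6a8 and Slc44a1 at 0, 4 and 12 h, stacked to the gene sum, 1 library per bar. In Slc39a14 the isoform NM_001135152 held 57.2% of the sum at 4 h.

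Other genes of transport and of its known inputs were counted from lists. Of 21 genes that belong to SLC families under other names, 17 were tested at 4 h over 0 h; 3 were lower and none was higher. The 3 were the lysophospholipid carrier Mfsd2a (28.7, 7.74 and 26.4 FPKM), the pyruvate carrier subunit Mpc1 (3.19, 0.597 and 1.47) and Flvcr2 (4.08, 1.53 and 1.38). The uncoupling protein Ucp2 was at 282, 205 and 314 FPKM. Of 3 measurable organic anion carriers, the prostaglandin carrier Slco2a1 was higher (3.09, 30.7 and 12.3 FPKM). Of 9 sodium pump genes, which set the gradient that many carriers use, none was higher and the regulators Fxyd1 (23.5, 9.88 and 11.7) and Fxyd2 (3.17, 0.936 and 0.729) were lower. Of 11 genes of the amino acid response 2 were higher, its transcription factor Atf4 (150, 357 and 160 FPKM) and Nupr1 (81.7, 385 and 295). The asparagine synthetase Asns (14, 22.6 and 19.3) and Trib3 (1.82, 0.860 and 1.12) were within 2-fold. So were Psph (12.9, 6.15 and 9.85) and Phgdh (5.71, 3.06 and 6.70), which had the lowest folds of the list at 4 h. The median log2 fold of the 11 was -0.11. Of 4 genes of the zinc response, the metallothioneins Mt1 (235, 1015 and 384 FPKM) and Mt2 (60.1, 982 and 271) were higher at 4 h, and Mt3 (30.6, 44.9 and 30.9) and the sensor Mtf1 (2.98, 4.58 and 3.41) were within 2-fold.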

How the data were processed

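Granulosa cell RNA was sequenced in 3 libraries, 1 per time, from 3 mice per time; whether RNA was pooled, strandedness and read length are not given in the sources used here. CASAVA 1.8, TopHat2 2.1.1, Cufflinks 2.2.1 and mm10 appear in the submitters' processing notes with no role given. The authors deposited FPKM of 34535 RefSeq isoforms with a lower and an upper bound, per the file headers; the bounds lie at 2 of the deposited standard deviations and their level is not stated. A value of 0 can be a failed estimate. Of 12 estimates marked as failed none was a member's.

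RefSeq accessions were matched to GRCm38.p6 symbols (34169 isoforms) or through GENCODE (193); 173 were left out. Isoform FPKM were summed per gene, and bounds combined as the root of summed squared half-widths, which assumes independent isoforms. Folds are log2 of the later over the earlier FPKM + 1, called at 2-fold where either library reached 1 FPKM, a rule of size. The rule was run on simulated fragments with counting noise alone. These hold no spread between mice and no isoform uncertainty, so they cannot vouch for the calls. Depth was read from low values of 1-isoform genes longer than 1000 nt: 70.9%, 70.0% and 71.8% of values under 10 fragments lay within 0.1 of a whole number at 0, 4 and 12 h, where even spread gives 20%. Opposite-strand exon overlap came from GENCODE; 41 members had one. Python 3.11.15 and pandas 2.3.3 were used.

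Members and lists were chosen with earlier results of these data known, and TGATGNAA after a promoter was seen. The naming rule took the 10 largest folds in each direction per comparison, the 4 most abundant members and the largest folds per class, the 10 most abundant members, the 5 genes on each side of the floor, isoform share changes, and the 2 largest folds in each direction per further list. The text names part of these, and other members within 2-fold were added as examples after their values were seen. Alternatives were pseudocounts, level floors, 3 scalings, the main isoform, other fold and share thresholds, and intervals that lie apart.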

Additional observations from a re-analysis of the deposited data

How the results depend on the processing

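No paired analysis was possible because each time has 1 library. Counts are in the order higher and lower at 4 h over 0 h, higher and lower at 12 h over 4 h, and higher and lower at 12 h over 0 h, where the reported counts are 21, 8, 7, 17, 5 and 2; only counts beyond 1.5 times the reported one are given. A 1.5-fold threshold gave 37, 29, 26, 33, 13 and 6, and a 4-fold threshold 9, 2, 0, 5, 1 and 0. A pseudocount of 5 FPKM gave 4 lower at 4 h over 0 h, 1 higher and 11 lower at 12 h over 4 h, and 2 higher at 12 h over 0 h; a pseudocount of 0.1 FPKM gave 11 higher at 12 h over 4 h. A floor of 10 FPKM gave 4 lower at 4 h over 0 h, and a floor of 1 FPKM or none gave 5 lower at 12 h over 0 h. The equal-total scale gave 22 lower at 4 h over 0 h and 24 higher and 10 lower at 12 h over 4 h; the coding-total scale gave 14, 19 and 10. Using each gene's main isoform alone gave 9 higher and 7 lower at 12 h over 0 h. Share changes numbered 11 at 30 points, 5 at a floor of 5 FPKM and 0 at 20 FPKM, against 1. The remaining 44 alternative counts stayed within 1.5 times, and no called member changed sign with the main isoform alone. A pseudocount cannot change the sign of a fold, and the scalings shift the libraries too little to reverse a 2-fold call. Neither could therefore have shown a change of sign. The cause of the moves in the counts was not tested. Below about 10 FPKM the deposited intervals are wide, and 1 library per time leaves the spread between mice unmeasured.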

Other observations

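Below the 5 FPKM floor, 44 carrier genes lay between 1 and 5 FPKM in their highest library, 130 stayed under 1 FPKM, and 46 of these were listed at 0 in all 3 libraries. The 2-fold rule needs 1 FPKM in 1 of the 2 libraries, so at most 44 of the 174 genes could be called. By it 4 were higher and 1 was lower at 4 h than at 0 h, beside 10.2% and 7.03% of all genes tested. The 4 were the magnesium carrier Slc41a2 (1.20, 4.96 and 2.37 FPKM at 0, 4 and 12 h), the cationic amino acid carrier Slc7a2 (1.62, 4.31 and 2.62), the zinc and manganese importer Slc39a8 (1.11, 4.02 and 1.65) and Slc22a23 (0.582, 2.86 and 0.925). The lower one was Slc5a4b (2.64, 0.393 and 2.23), the close copy of Slc5a4a. At 12 h over 0 h the glutamate carrier Slc1a1 (0.192, 1.22 and 1.79 FPKM) and Slc23a3 (0.643, 2.21 and 2.31) were higher. Lower at 12 h over 0 h were Slc24a4, a sodium-calcium exchanger (3.10, 3.01 and 0.774), Slc28a2b (4.01, 2.27 and 1.29) and the organic cation carrier Slc47a1 (2.68, 1.04 and 0.706). At 12 h over 4 h Slc5a4b was higher, and Slc22a23 and Slc24a4 were lower. Of all genes tested 4.83% were higher and 7.88% lower at 12 h over 4 h, and 3.16% and 2.55% at 12 h over 0 h. The genes of this paragraph were named after their values were seen.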
